A study of Mus musculus with 24 samples.

Results

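The genes described here were 10 markers of oligodendrocyte precursor cells, Pdgfra, Cspg4, Olig1, Olig2, Gpr17, Vcan, Ptprz1, Neu4, Lhfpl3 and Matn4. They were chosen by name from a list and not by a threshold on measured values, but earlier results of these data were known. They were 10 of 52352 annotated mouse genes, and all 10 were among the 18239 genes that passed the filter on low counts. Poly-A RNA from frontal cortex of 24 mice was sequenced, 1 library per mouse. The cross joined loss of 1 Grn allele, the gene for the lysosomal glycoprotein progranulin, with hTDP, a transgene whose transcript in the files is human TARDBP, the gene for the RNA-binding protein TDP-43. The 4 genotypes were nontransgenic Grn+/+, hTDP+ Grn+/+, nontransgenic Grn+/- and hTDP+ Grn+/-, each with 3 females and 3 males and no other treatment. Ages were 9.44 to 10.79 months in nontransgenic Grn+/+, 9.44 to 10.07 months in both hTDP+ groups and 8.19 to 10.79 months in nontransgenic Grn+/-. The promoter of the transgene was not given in the sources used here, nor was it stated which mice shared a litter.

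Oligodendrocyte precursor cells are a dividing glial population spread through grey and white matter. PDGF-A, made by neurons and astrocytes, acts on their receptor PDGFRα to keep them proliferating, and when they leave that state they pass through a committed stage and become myelinating oligodendrocytes. Several of their markers are shared with other cells: Olig1 and Olig2 stay on in mature oligodendrocytes, Ptprz1 is also made by astrocytes, Cspg4 by pericytes, and Pdgfra and Vcan by fibroblasts. In a bulk sample such as this one, fewer cells of a type and less RNA per cell cannot be told apart.

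Libraries held 61445842 to 100859149 estimated reads. The labels held for every library: human TARDBP had 4328 to 8162 reads in the 12 hTDP+ mice and at most 2 in the others, and Grn stood at 36.6 to 63.9 TPM, Salmon's length-corrected unit of transcript abundance, in Grn+/+ against 15.2 to 30.3 TPM in Grn+/-. Replicate 2 of hTDP+ Grn+/+ stood apart, with 40188 transcripts above 0 where the other 23 libraries had 65994 to 69846. It listed the same transcripts as the other libraries. Whether the index and settings behind it were otherwise the same was not given in the sources used here. Several values that moved without it are given beside the results.

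Vcan and Ptprz1 were each read as a mixture of transcripts that encode different proteins, and the sequences that tell these transcripts apart show what was counted. Vcan (chr13:89655312-89742509, minus strand, GRCm38) encodes versican, a large chondroitin sulphate proteoglycan of the extracellular matrix, whose sugar chains attach to stretches encoded by a pair of long exons. Vcan-203 joins the first long exon, of 2880 bases, to the second, of 5217 bases (chr13:89688285-89693501), and has a coding sequence of 10062 bases. Vcan-202 skips the second and joins the first to a 114-base exon, with 4845 coding bases. The 40 bases across each junction follow, coding strand, with the next exon in capitals.

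Vcan-203: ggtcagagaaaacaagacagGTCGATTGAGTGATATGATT

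Vcan-202: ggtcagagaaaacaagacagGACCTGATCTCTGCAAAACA

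Both forms were present in every library, and their mean read shares were close. Vcan-203 took 50.7% ± 4.78 (SD, n = 24; range 40.1% to 62.9%) of the estimated Vcan reads and Vcan-202 took 47.4% ± 5.6 (35.3% to 59.9%). Because Vcan-203 is the longer transcript, the order was the other way round per molecule: 62.1% ± 7.60 of Vcan TPM was Vcan-202 and 29.6% ± 3.22 was Vcan-203. By genotype, the Vcan-202 share of reads was 50.2% ± 3.10 (SD, n = 6) in nontransgenic Grn+/+, 49.8% ± 5.03 in hTDP+ Grn+/+, 46.3% ± 6.05 in nontransgenic Grn+/- and 43.4% ± 5.97 in hTDP+ Grn+/-, and the 4 ranges overlapped. The highest share, 59.9%, was that of the hTDP+ Grn+/+ library that stood apart, and without it the hTDP+ Grn+/+ share was 47.8% ± 0.970 (SD, n = 5).

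Ptprz1 (chr6:22875502-23052916, plus strand) encodes a receptor tyrosine phosphatase that carries chondroitin sulphate, with pleiotrophin and contactin 1 among its partners, and its gene also gives a secreted proteoglycan, phosphacan, that lacks the membrane and phosphatase parts. Ptprz1-201, with 30 exons and 6936 coding bases, is the long receptor. Ptprz1-204 uses 1000 of the 3547 bases of the long exon before joining the same 145-base exon, and has 4389 coding bases. Ptprz1-206 reads on past the end of the long exon and meets a stop codon after 12 coding exons, which gives the secreted form. In the lines that follow, capitals mark the next exon for Ptprz1-201 and Ptprz1-204 and the stop codon for Ptprz1-206.

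Ptprz1-201: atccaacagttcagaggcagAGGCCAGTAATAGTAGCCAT

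Ptprz1-204: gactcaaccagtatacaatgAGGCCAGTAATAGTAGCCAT

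Ptprz1-206: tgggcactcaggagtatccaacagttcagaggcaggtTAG

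The secreted form was the most abundant in all 24 libraries, from 46.0% to 57.3% of the estimated Ptprz1 reads. Its mean was 51.7% ± 2.77 (SD, n = 24), against 37.9% ± 2.57 for the long receptor and 10.0% ± 1.82 for the short receptor. The short receptor stood at 9.22% ± 0.903 (SD, n = 6) in nontransgenic Grn+/+ and 11.5% ± 2.03 in hTDP+ Grn+/-, with overlapping ranges.

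**Figure D1:**
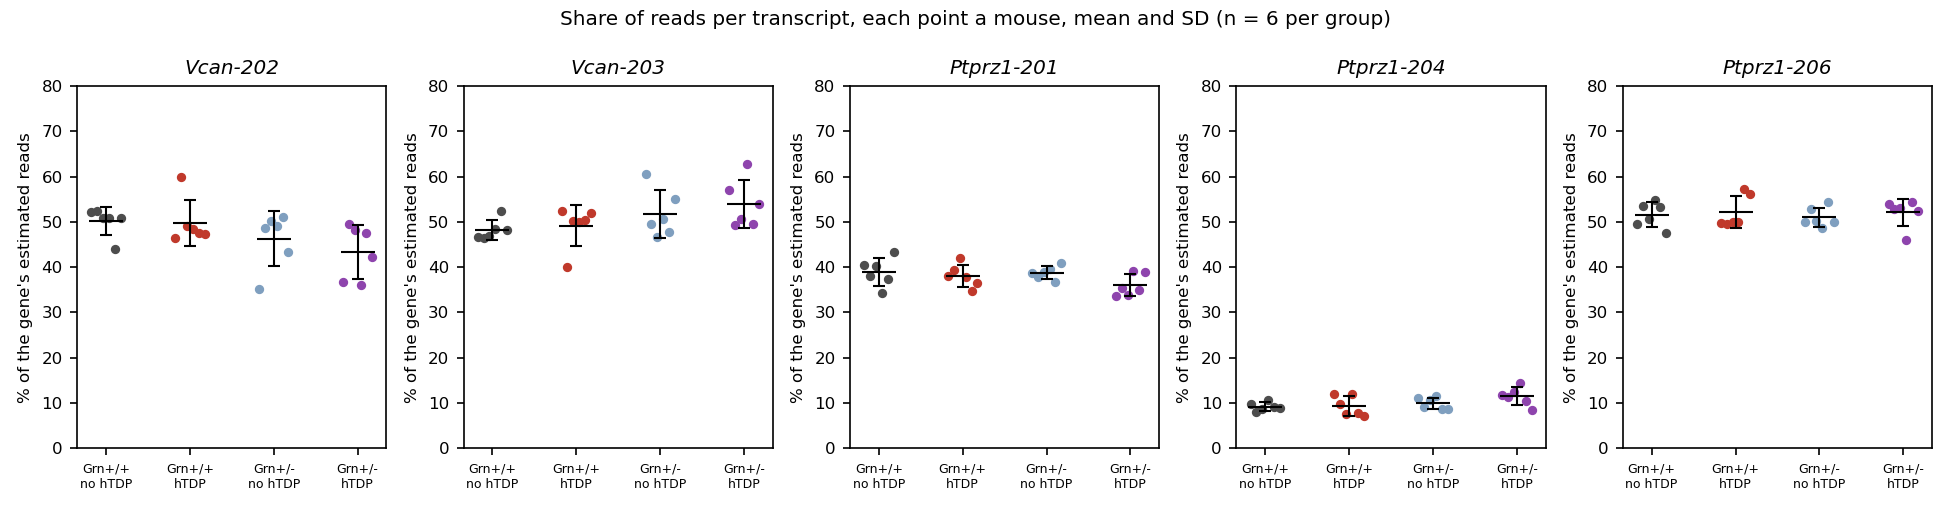
Share of the estimated reads of Vcan and Ptprz1 assigned to each transcript (vertical axis, %), by genotype (horizontal axis); each point is a mouse, with the mean and SD of 6. The secreted Ptprz1-206 lies between 46.0% and 57.3% in every library, above both receptor forms, and the Vcan forms lie between 35.3% and 62.9%.

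Lhfpl3 (chr5:22746059-23275597, plus strand), a tetraspan membrane protein of the lipoma HMGIC fusion partner family, had 72.2% ± 6.37 (SD, n = 24) of its reads on Lhfpl3-202 and 27.8% on Lhfpl3-201. The library that stood apart had 50.1% on Lhfpl3-201, the highest of all, and brought the hTDP+ Grn+/+ mean from 31.1% ± 4.78 (SD, n = 5) to 34.3% ± 8.84 (n = 6). Cspg4 had 80.9% ± 6.81 of its reads on its coding transcript and 15.6% ± 6.68 on the retained-intron transcript Cspg4-204. Of Cspg4 TPM these were 64.1% ± 9.89 and 31.3% ± 10.1. The main coding transcript held 92.1% of the reads of Pdgfra, 87.5% of Matn4 and 77.7% of Neu4, while Gpr17, Olig1 and Olig2 each had 1 transcript. Of TPM, it held 86.4% for Pdgfra, 92.9% for Matn4 and 54.4% ± 7.17 for Neu4. The shorter coding transcript Neu4-202 held the other 45.6% of Neu4 TPM. Transcript usage was tested with edgeR's diffSpliceDGE on the 7668 genes with at least 2 usable transcripts, 7 of them members. None of the 7 was called at an adjusted p under 0.05 for hTDP (background 0.17% of genes called) or for Grn (0.0522%). All 7 had an adjusted p of 1 in both. By limma's diffSplice the lowest were an adjusted p = 0.254 for Lhfpl3 and 0.261 for Cspg4 in the hTDP comparison and an adjusted p = 0.523 for Vcan in the Grn comparison. Without the library that stood apart, an alternative chosen after seeing the data, limma's adjusted p was 0.455 for Lhfpl3, 0.441 for Cspg4 and 0.789 for Vcan in the same comparisons, and the lowest for hTDP was 0.348, for Matn4.

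Per length, the members spanned from a few TPM to about 100, and their order was nearly the same in each mouse. Olig1 was highest with 97.6 ± 16 TPM (SD, n = 24), followed by Ptprz1 with 46.4 ± 4.94, Olig2 with 21.5 ± 4.35 and Pdgfra with 15.7 ± 1.73. Gpr17 had 13.4 ± 1.75 TPM, Lhfpl3 12 ± 1.90, Matn4 9.07 ± 1.15, Cspg4 5.85 ± 0.640, Neu4 3.55 ± 0.63 and Vcan 3.36 ± 0.409. Each gene in this order stood above the next in all 24 libraries, except that Pdgfra exceeded Gpr17 in 21, Gpr17 exceeded Lhfpl3 in 19, Lhfpl3 exceeded Matn4 in 23 and Neu4 exceeded Vcan in 15. The last pair therefore had no fixed order. The lowest read count behind any value was 278, for Neu4, and the highest 18315, for Ptprz1.

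**Figure D2:**
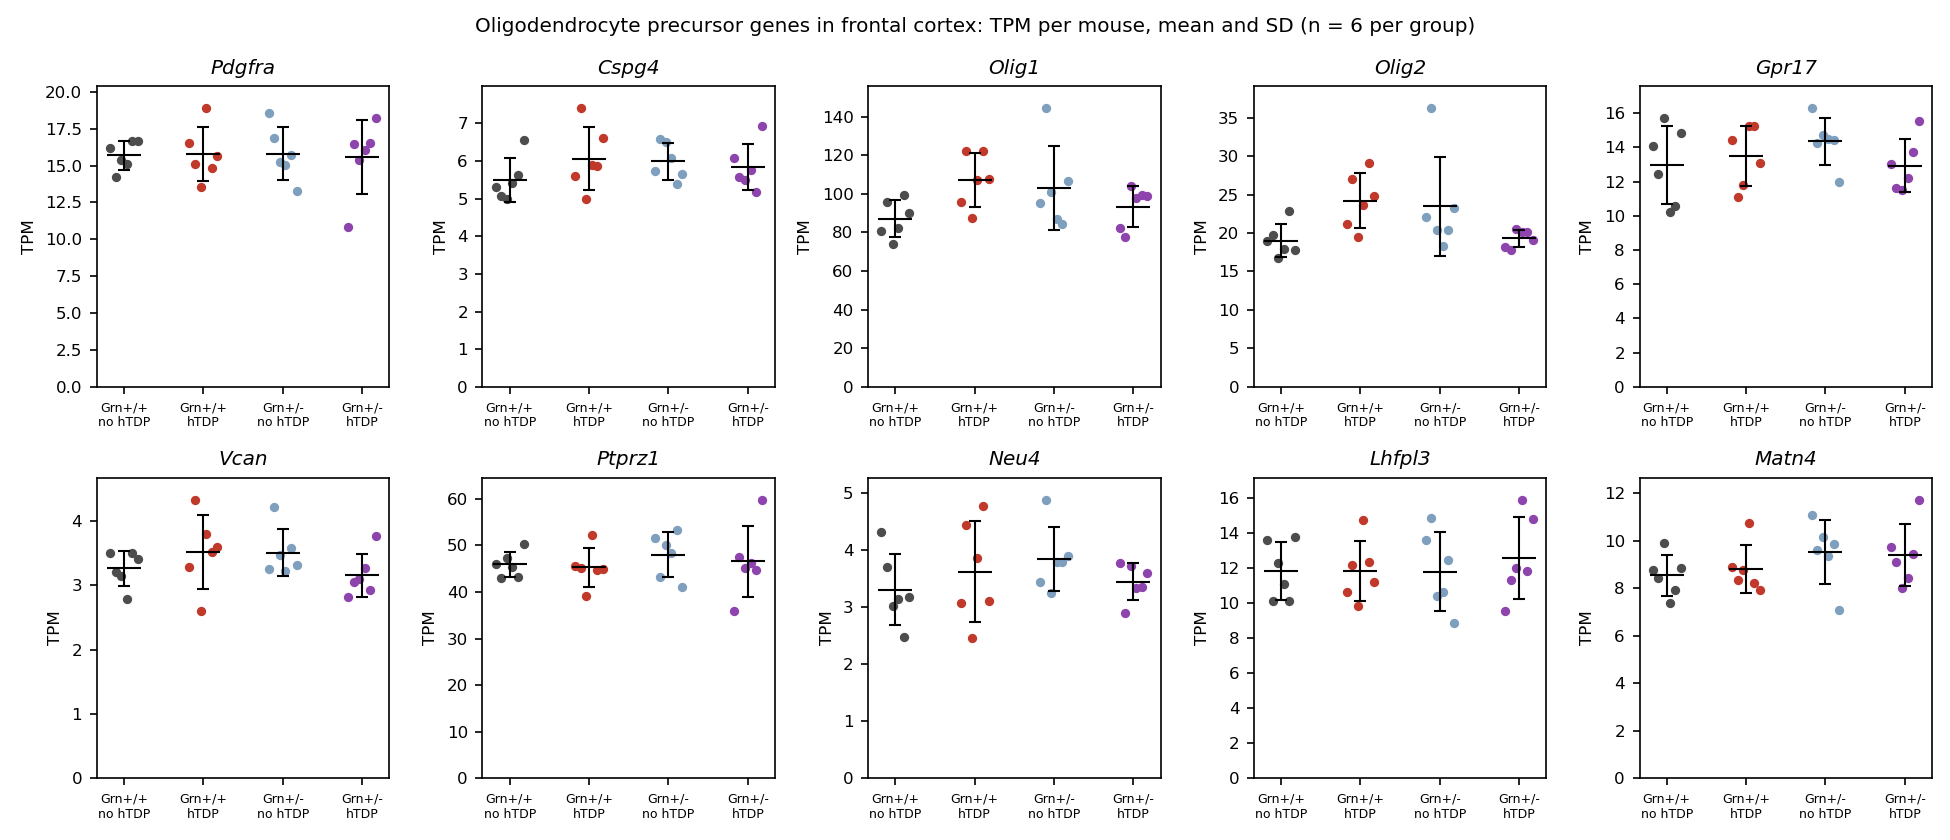
TPM of each of the 10 genes (vertical axes, from 0) in the 4 genotypes (horizontal axes); each point is a mouse, with the mean and SD of 6. The groups overlap in every panel, and the single high Olig1 and Olig2 points in nontransgenic Grn+/- (144.3 and 36.2 TPM) come from the same mouse.

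The transcription factors Olig1 (chr16:91269772-91271933, plus strand) and Olig2 (chr16:91225457-91228677, plus strand) are neighbouring basic helix-loop-helix genes, Olig2 being needed to specify the lineage and Olig1 acting in maturation and myelination. In CPM, which here are reads scaled to library size with edgeR's trimmed mean (TMM) factors, Olig2 had a lowest, median and highest value of 20.2, 22.3 and 27.9 in nontransgenic Grn+/+ and 23.9, 29.7 and 36.5 in hTDP+ Grn+/+. In nontransgenic Grn+/- they were 22.6, 26.3 and 43.9, and in hTDP+ Grn+/- 21.8, 24.8 and 25.2. The 5 highest values were those of 4 of the 6 hTDP+ Grn+/+ mice and of 1 nontransgenic Grn+/- mouse, and every pair of groups overlapped. Within Grn+/+, the log2 change with hTDP was 0.38 (SE 0.12, 1.30-fold), with adjusted p = 0.591 by edgeR's quasi-likelihood test. Within Grn+/- it was -0.25 (SE 0.12), with adjusted p = 0.9999. The difference between these effects, the interaction, was -0.63 (SE 0.17; 95% interval -0.98 to -0.28), with adjusted p = 1. Olig2 was not called in either comparison or for the interaction.

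Olig1 had its lowest and highest medians in the same groups as Olig2. Its lowest, median and highest CPM were 74.8, 87.0 and 100.7 in nontransgenic Grn+/+, 89.1, 110.2 and 127.8 in hTDP+ Grn+/+, 87.5, 101.1 and 145.9 in nontransgenic Grn+/-, and 79.0, 101.6 and 107.0 in hTDP+ Grn+/-. Again the groups overlapped, with the lowest median in nontransgenic Grn+/+. The log2 change with hTDP was 0.32 (SE 0.11) in Grn+/+, with adjusted p = 0.592, and -0.12 (SE 0.11) in Grn+/-, with adjusted p = 0.9999. The interaction was -0.44 (SE 0.16), with adjusted p = 1 by the same edgeR test.

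For both Olig genes the sizes of the estimates moved with single libraries. Even so, in each of the 24 fits that left out a library, both passed an unadjusted edgeR p under 0.05 for hTDP in Grn+/+. The same held for the interaction, and neither gene was called in any of these fits. Without replicate 2 of nontransgenic Grn+/-, the highest mouse of all for both genes, the hTDP effect on Olig2 in Grn+/- was -0.11 (SE 0.09), the Grn effect without the transgene went from 0.32 to 0.17 and the interaction was -0.48. For Olig1 these were -0.02 (SE 0.10), 0.16 where it had been 0.26, and -0.34. Without replicate 5 of hTDP+ Grn+/+, the hTDP effect in Grn+/+ was 0.29 for Olig2 and 0.26 for Olig1. Without the library that stood apart it was 0.35 and 0.29. Some ages recurred across genotypes. With age as a factor, the hTDP effect in Grn+/+ was 0.43 (SE 0.11) for Olig2 and 0.35 (SE 0.11) for Olig1. In Grn+/- it was -0.29 (SE 0.18) and -0.26 (SE 0.18). Ages of 10.56, 9.14 and 8.19 months occurred only in nontransgenic Grn+/-. With age in the fit, that group's level therefore rested on replicate 3 and on replicate 2, the highest mouse for both genes. In that fit the Grn effect without the transgene was 0.43 (SE 0.16) for Olig2 and 0.44 (SE 0.16) for Olig1, and the interaction -0.72 (SE 0.20) and -0.60 (SE 0.20), with no adjusted p of either gene in these comparisons under 0.740.

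Both Olig genes moved with the level of mature oligodendrocyte RNA, which differed more between mice than that of any member. The 19 mature oligodendrocyte genes, among them Mbp, which encodes myelin basic protein, were all detected in every library, and their summed level was 1226 to 3054 TPM in nontransgenic Grn+/+, 2021 to 4212 in hTDP+ Grn+/+, 1302 to 5764 in nontransgenic Grn+/- and 1145 to 3119 in hTDP+ Grn+/-. The highest of these sums, 5764 TPM, was that of the mouse with the highest Olig1 and Olig2. All 19 had a positive log2 change with hTDP in Grn+/+ (median 0.66), all 19 a negative one in Grn+/- (median -0.18) and all 19 a negative interaction (median -0.85), and none was called by edgeR in any of these. Over the 24 mice, the mean centred log2 CPM of these genes had a Pearson's r of 0.83 with Olig1 (Spearman's rho 0.76) and of 0.79 with Olig2 (rho 0.67), in a family of 30 relations. The permutation p values were 1e-05 for both r, the smallest that 100000 resamples can give, and 4e-05 and 0.00046 for rho, with adjusted p values of 0.0001 for both r and 0.0012 and 0.00345 for rho. Without the 2 mice farthest from the median of the mature genes, r was 0.74 and 0.67, and after removal of genotype and sex it was 0.82 and 0.77. The part of mature oligodendrocyte RNA in the group values of Olig1 and Olig2 was not tested.

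The other 8 members had lower values of r with the mature genes. Pdgfra had r = -0.04, Lhfpl3 0.01, Cspg4 0.13, Vcan 0.33 (0.20 without the library that stood apart) and Neu4 0.37. Gpr17 had -0.25, Ptprz1 -0.39 and Matn4 -0.43. None of these 8 passed an adjusted p of 0.05 by r, the lowest being 0.0777 for Matn4. By rho, Ptprz1 (rho -0.50, permutation p = 0.0135, adjusted p = 0.0369) and Matn4 (rho -0.49, permutation p = 0.0153, adjusted p = 0.0382) passed. Whether r differed between genes was not tested.

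**Figure D3:**
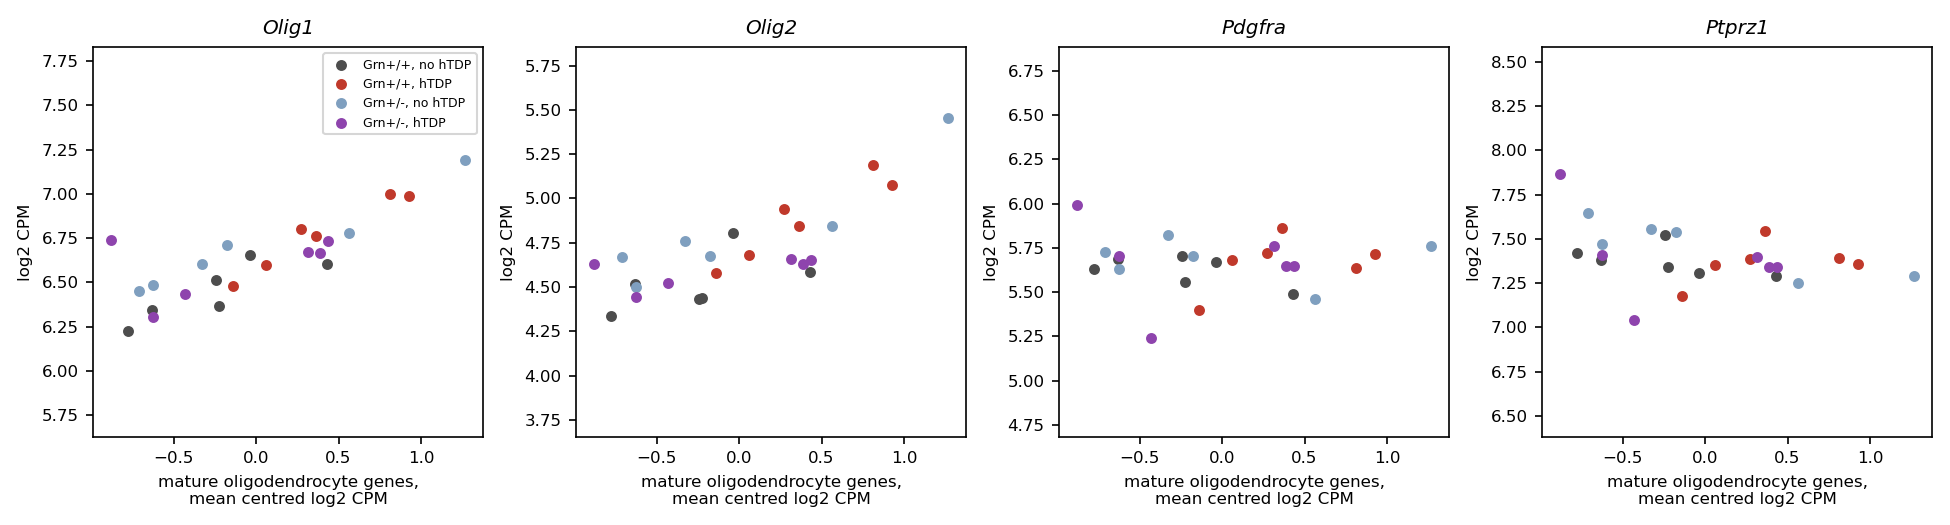
Log2 CPM of Olig1, Olig2, Pdgfra and Ptprz1 (vertical axes, equal spans) against the mean centred log2 CPM of 19 mature oligodendrocyte genes (horizontal axis); each point is 1 of 24 mice, coloured by genotype. Olig1 (r = 0.83) and Olig2 (r = 0.79) climb with the mature genes, while Pdgfra (r = -0.04) and Ptprz1 (r = -0.39) do not.

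Pdgfra (chr5:75152292-75198215, plus strand), the receptor for PDGF-A and the standard surface marker of these cells, differed little between genotypes. Its lowest, median and highest CPM were 44.9, 50.2 and 52.0 in nontransgenic Grn+/+, 42.3, 51.9 and 58.2 in hTDP+ Grn+/+, 44.1, 52.6 and 56.5 in nontransgenic Grn+/-, and 37.9, 51.1 and 63.6 in hTDP+ Grn+/-. The last group held both the lowest and the highest mouse of the 24. The average log2 change with hTDP was 0.02 (95% interval -0.11 to 0.15) and with loss of a Grn allele 0.03 (-0.10 to 0.16), with edgeR adjusted p values of 0.949 and 0.967. Its ligand gene Pdgfa had an average log2 change of 0.06 (SE 0.03) with hTDP and 0.01 (SE 0.03) with Grn loss, and none of the 6 PDGF ligand and receptor genes other than Pdgfra was called in either comparison.

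Cspg4 (chr9:56865033-56899870, plus strand), which encodes the membrane proteoglycan NG2, varied least among the members, with a coefficient of variation of 8.82% over the 24 mice. Its CPM ran from 17.2 to 22.6 in nontransgenic Grn+/+, 17.7 to 21.3 in hTDP+ Grn+/+, 18.5 to 22.9 in nontransgenic Grn+/- and 16.8 to 23.9 in hTDP+ Grn+/-. The average changes were -0.01 (95% interval -0.12 to 0.10) with hTDP and 0.05 (-0.06 to 0.16) with Grn loss. Gpr17, a G protein-coupled receptor switched on in late precursors and off again before myelination, ran from 27.1 to 41.8, 30.4 to 41.8, 32.4 to 43.9 and 31.1 to 44.3 CPM in the same order of groups. Its average changes were -0.03 (-0.18 to 0.13) and 0.07 (-0.09 to 0.23). All ranges overlapped for both genes.

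Ptprz1 had a lowest, median and highest level of 43.0, 45.8 and 50.4 TPM in nontransgenic Grn+/+, 39.1, 45.1 and 52.2 TPM in hTDP+ Grn+/+, 41.0, 49.3 and 53.4 TPM in nontransgenic Grn+/-, and 35.9, 45.7 and 59.8 TPM in hTDP+ Grn+/-. As for Pdgfra, the hTDP+ Grn+/- group held both extremes. The average changes were -0.02 (95% interval -0.16 to 0.11) with hTDP and 0.07 (-0.07 to 0.21) with Grn loss. Of 15 genes of the chondroitin sulphate matrix and of Ptprz1 partners, none was called; Ptn, which encodes the ligand pleiotrophin, had the largest absolute value of the 3 most abundant with Grn loss, 0.12 (SE 0.03, adjusted p = 0.926). Vcan ran from 10.8 to 13.5 CPM in nontransgenic Grn+/+, 10.7 to 16.8 in hTDP+ Grn+/+, 12.6 to 14.8 in nontransgenic Grn+/- and 10.5 to 15.4 in hTDP+ Grn+/-. Its hTDP effect was 0.15 (SE 0.09) in Grn+/+ and -0.10 (SE 0.09) in Grn+/-, and its interaction -0.26 (SE 0.13, adjusted p = 1). The highest value, 16.8 CPM, was that of the library that stood apart, and without it the group ended at 14.7 CPM, the effect in Grn+/+ was 0.09 (SE 0.09) and the interaction -0.19 (SE 0.13). Matn4 (chr2:164389393-164405160, minus strand), which encodes the matrix adaptor protein matrilin 4, had medians of 9.80, 10.2, 11.3 and 10.7 CPM in the same order of groups. Its average Grn effect of 0.13 (SE 0.07, adjusted p = 0.926 by edgeR) was the furthest from 0 among the members in that comparison, and was 0.09 without replicate 6 of hTDP+ Grn+/-. In 4 of the 24 fits that left out a library this effect passed an unadjusted edgeR p under 0.05, and it was called in none.

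Neu4 (chr1:94020451-94028334, plus strand), a sialidase that trims sialic acid from glycoproteins and gangliosides, had estimates of opposite sign for hTDP in Grn+/+ and Grn+/-, as the Olig genes did. Its lowest, median and highest CPM were 4.42, 5.07 and 6.23 in nontransgenic Grn+/+, 4.36, 5.98 and 7.73 in hTDP+ Grn+/+, 5.86, 6.07 and 7.29 in nontransgenic Grn+/-, and 4.53, 5.27 and 6.30 in hTDP+ Grn+/-. The hTDP effect was 0.21 (SE 0.12) in Grn+/+ and -0.21 (SE 0.12) in Grn+/-, with overlapping groups in each case. Without replicate 5 of hTDP+ Grn+/+, its highest mouse, the effect in Grn+/+ was 0.12 (SE 0.12). Its interaction was -0.41 (SE 0.17, adjusted p = 1). With age as a factor the interaction was -0.32 (SE 0.22) and the hTDP effect in Grn+/- was -0.05 (SE 0.20). For hTDP in Grn+/+, Neu4 passed an unadjusted edgeR p under 0.05 in the same fit but not in the main one, and was called in neither. In that fit the level of nontransgenic Grn+/- rested on replicates 2 and 3. Lhfpl3 was the member whose interaction was above 0, at 0.10 (95% interval -0.28 to 0.49; 0.02 to 0.18 with 1 library left out), and its medians were 16.7, 16.7, 17.1 and 17.4 CPM.

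Over the whole list, no member was called at an adjusted p under 0.05 in any comparison, and calls were rare among all genes too. The share of the 18239 tested genes called by edgeR was 0.11% for the average hTDP effect, 0.0329% for hTDP in Grn+/+, 0.0219% for hTDP in Grn+/-, 0.0219% for the average Grn effect, 0.011% for Grn without hTDP, 0.00548% for Grn with hTDP, 0.0768% for both changes against neither, 0% for the interaction and 0.0713% for sex. A share of 0 of 10 members is close to each of these backgrounds. For the interaction, where edgeR called 0 genes, 434 genes had an unadjusted p under 0.05 and DESeq2 called 7 genes, no member among them. At an unadjusted p under 0.05, a looser rule with no correction, 2 of 10 members passed for hTDP in Grn+/+ (Olig1 and Olig2, both above 0; background 7.83% of genes), 1 for hTDP in Grn+/- (Olig2, below 0; 2.38%), 3 for Grn without hTDP (Olig1, Olig2 and Neu4, all above 0; 3.41%), 1 for Grn with hTDP (Olig2, below 0; 3.37%) and 3 for the interaction (Olig1, Olig2 and Neu4, all below 0; 2.38%). By that rule 0 of 10 passed for the average hTDP effect (7.86%), the average Grn effect (4.93%), both changes against neither (9.4%) and sex (5.99%). These unadjusted counts moved with single libraries. Without replicate 2 of nontransgenic Grn+/- the count for Grn without hTDP was 0, and without replicate 6 of that group it was 4. Without replicate 5 of hTDP+ Grn+/+ the count for Grn with hTDP was 0 and that for the interaction 2. The interaction count was 4, with Vcan added, in 5 of the 24 fits that left out a library. For hTDP in Grn+/- it was 0 in 10 of the 24 fits that left out a library, namely replicates 2 and 6 of nontransgenic Grn+/-, 1, 2, 4 and 5 of hTDP+ Grn+/-, 1 and 6 of nontransgenic Grn+/+, and 4 and 6 of hTDP+ Grn+/+, and it was 3 without replicate 6 of hTDP+ Grn+/-. Without replicate 3 of hTDP+ Grn+/+ the counts were 4 for hTDP in Grn+/+ and 3 for Grn with hTDP. For the average Grn effect the count was 1, Matn4, in 4 of the 24 fits. For both changes against neither it was 1, also Matn4, in 2 fits. For the average hTDP effect and for sex it was 1 in 1 fit each. With age as a factor the counts were 3 for hTDP in Grn+/+, 0 for hTDP in Grn+/- and 2 for Grn without hTDP. For Grn with hTDP and for the interaction they were 1 and 2 in that fit. These comparisons share groups and so share mice.

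In direction, the log2 changes with hTDP in Grn+/+ were above 0 for 8 of 10 members and 50.3% of all tested genes (medians 0.09 and 0.00). In Grn+/- they were above 0 for 2 of 10 members and 49.9% of genes (medians -0.08 and 0.00). The interaction was below 0 for 9 of 10 members and for 8925 of 18239 genes, with medians of -0.15 and 0.00. With Grn loss and no hTDP, 10 of 10 members and 53.9% of genes were above 0 (medians 0.15 and 0.01). So were 19 of 19 mature oligodendrocyte genes and 13 of 13 astrocyte markers. Fibroblast and meningeal markers had 10 of 10 above 0 and microglia markers 9 of 10. Pericyte and mural markers had 6 of 10 and neuron markers 3 of 12. With Grn loss in hTDP+ mice, 5 of 10 members and 51.35% of genes were above 0 (medians -0.01 and 0.00). The averages were smaller: 6 of 10 above 0 for hTDP (median 0.02; 51.6% of genes) and 9 of 10 for Grn (median 0.06; 53.5% of genes). For mice with both changes against mice with neither, 10 of 10 members and 54.9% of genes were above 0, with medians of 0.06 and 0.01. The furthest member was Matn4 at 0.19 (SE 0.10, adjusted p = 0.595; 0.10 without replicate 6 of hTDP+ Grn+/-). Members varied together between mice, so their signs were not independent. The difference of males minus females had a median of -0.01, with 5 members on each side of 0.

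**Figure D4:**
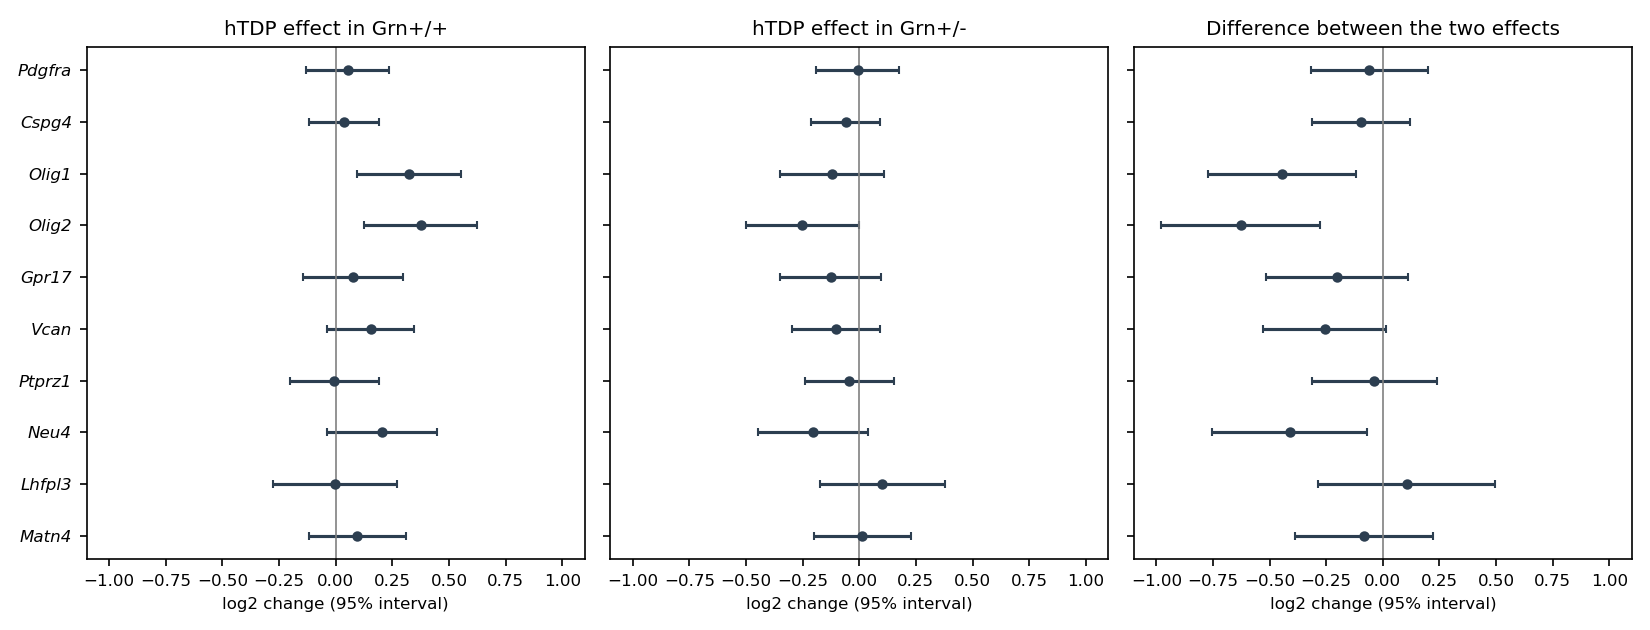
Log2 change with hTDP in Grn+/+ (left), in Grn+/- (middle) and the difference between these effects (right) for each member; points are edgeR estimates and bars their 95% intervals. Olig1 and Olig2 lie above 0 at the left (0.32 and 0.38), and Olig1, Olig2 and Neu4 lie furthest below 0 at the right (-0.44, -0.63 and -0.41); no adjusted p passed 0.05.

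Other genes of the lineage were measured from the same fit. Of 20 other precursor genes, led by Sulf2, Epn2 and Tnr, none was called. Their interaction was below 0 for 15 (median -0.06, range -0.47 to 0.15). Of 15 committed and newly formed oligodendrocyte genes tested, led by Fyn, Bcas1 and Tns3, none was called, and the interaction was below 0 for 13 (median -0.11). Among 11 transcription factors and inhibitors of the lineage, including Id2, Tcf4 and Hey1, none was called and the interaction had a median of 0.00. None of the 9 cell cycle genes tested was called for hTDP or Grn on average. The summed pericyte and mural markers ran from 92.2 to 120.0 TPM in nontransgenic Grn+/+, 100.9 to 140.6 in hTDP+ Grn+/+, 103.7 to 129.4 in nontransgenic Grn+/- and 108.2 to 154.5 in hTDP+ Grn+/-. All 10 of them, and all 10 fibroblast and meningeal markers, had positive average changes with hTDP (medians 0.13 and 0.27), and none was called. The part of these cells in the values of Cspg4, Pdgfra and Vcan was not tested.

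Between mice the members varied moderately. Coefficients of variation ran from 8.82% for Cspg4 to 20.2% for Olig2, with a median of 13.3%. The median was 46.5% for the mature oligodendrocyte genes and 7.49% for all 11397 genes with a mean of at least 5 CPM.

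Members varied together in part. Of 45 pairs over 24 mice, 42 had a positive Pearson's r, the median r was 0.45, and 20 passed an adjusted p of 0.05 by permutation for both r and rho. The share over pairs of other genes was not computed, so these counts have no background. Olig1 and Olig2 had the highest r, 0.92 (rho 0.85, permutation p = 1e-05 for both, adjusted p = 0.00018 and 0.00045), and r was 0.88 without the 2 mice farthest from the median of Olig1. Pdgfra and Ptprz1 had r = 0.84 (rho 0.68, permutation p = 1e-05 and 0.00031, adjusted p = 0.00018 and 0.00191), and 0.68 without the 2 farthest mice. Pdgfra and Lhfpl3 had r = 0.77 (rho 0.78), Cspg4 and Vcan 0.77 (rho 0.79), and Gpr17 and Matn4 0.75 (rho 0.74), each with an adjusted permutation p of 0.00018 for r, and without the 2 farthest mice r was 0.76, 0.80 and 0.68. The lowest values were those of the Olig genes with Ptprz1, Gpr17 and Matn4: Olig1 had r = 0.02, 0.08 and -0.06 with these, and Olig2 -0.08, 0.07 and -0.07. Other pairs across these sets were higher, such as Pdgfra and Vcan (0.71), Pdgfra and Cspg4 (0.66), Ptprz1 and Gpr17 (0.57, rho 0.70) and Ptprz1 and Matn4 (0.55). On log2 TPM, r was 0.46 for Pdgfra and Vcan and 0.16 for Pdgfra and Cspg4. Neither passed an adjusted permutation p of 0.05 on that scale. Ptprz1 had 0.53 with Gpr17 and 0.57 with Matn4 there, and both passed. Vcan had r from 0.55 to 0.77 with the other members except Gpr17 (0.33) and Matn4 (0.19). Without the library that stood apart, r moved by at most 0.20, in Gpr17 with Vcan, which went from 0.33 to 0.53. After removal of genotype and sex, 23 pairs passed by r, and on log2 TPM 15 did. No sequencing batch was given in the labels.

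**Figure D5:**
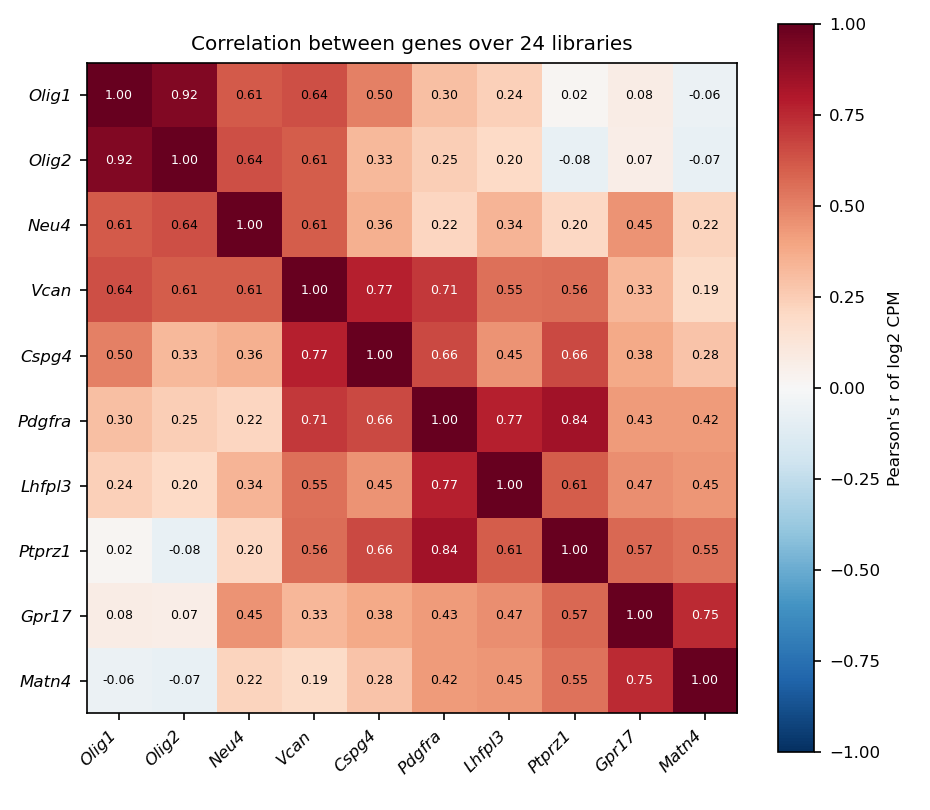
Pearson's r of log2 CPM over 24 mice for every pair of the 10 members, from -1 (blue) to 1 (red). Olig1 and Olig2 form the strongest pair (0.92), and Pdgfra, Lhfpl3, Ptprz1, Gpr17 and Matn4 each have an r of at most 0.30 with either Olig gene. Among these 5, r runs from 0.42 (Pdgfra and Matn4) to 0.84 (Pdgfra and Ptprz1).

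Against astrocyte markers, Ptprz1 had r = 0.61 (rho 0.35, permutation p = 0.00273 and 0.0989, adjusted p = 0.0091 and 0.198), Matn4 0.57 (rho 0.29) and Pdgfra 0.53 (rho 0.25). Without the 2 mice farthest from the median of the astrocyte markers these were 0.25, 0.15 and 0.23, so the relations rest on those mice. Against the mean of the 20 other precursor genes, 8 of 10 members passed an adjusted permutation p of 0.05 by r, led by Vcan (0.79, rho 0.71) and Pdgfra (0.72, rho 0.67), while Gpr17 (0.41) and Matn4 (0.25) did not. This count too has no background over other genes. Leaving out the 2 farthest mice gave 0.68 for Vcan and 0.52 for Pdgfra, and brought Ptprz1 from 0.48 to 0.21.

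The genes most like the members were sought, with the members themselves left out, among 13019 tested genes with a mean of at least 1 CPM, by Pearson's r over the 24 libraries, which share depth and scaling. With the mean of the members, the highest r were those of Clmn (0.89), Tmbim6 (0.87), Mvb12b (0.85), Pcsk6 (0.82) and Tmem9 (0.81). For single members the closest genes outside the list were Arhgef10 for Olig1 (0.92), Jam3 for Olig2 (0.88), Lin7c for Pdgfra (0.88), Slc1a3, the astrocyte glutamate transporter gene, for Ptprz1 (0.93), Gfra1 for Vcan (0.89), Mfge8 for Matn4 (0.88), Kcnn3 for Lhfpl3 (0.87), Prss53 for Gpr17 (0.80), Hist2h2be for Cspg4 (0.78) and Rps6 for Neu4 (0.73). For Olig1 and Olig2, their r with each other (0.92) was as high as or higher than these. These are the highest of many values and carry no test.

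The strand of the libraries was not clear from the labels, and some members share exon bases with a gene on the other strand. The shared bases were 17.6% of the exon bases of Lhfpl3 (with A930003O13Rik), 7.26% of Olig1 (with Gm15966), 4.55% of Pdgfra (with Gm42802), 3.62% of Gpr17 (with Lims2) and 2.88% of Matn4 (with Rbpjl). Reads from these stretches may belong to either gene.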

How the data were processed

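Frontal cortex poly-A RNA from 24 mice (6 per genotype) was analysed from the authors' deposited tables, 1 per library. Per the file headers these give expected counts and TPM per transcript, with effective lengths, as Salmon writes them. STAR, Salmon, SAMtools and DESeq2 appear in the submitters' processing notes without version or role. The genome build and annotation behind the deposited tables were not given in the sources used. IDs of transcripts were matched here to GENCODE M21 (GRCm38): 138032 of 149444 (92.4%) matched, and the rest held 1.17% to 1.66% of reads. For each gene the expected counts of its transcripts were added up and the sum rounded. TPM was summed per gene as deposited by the authors.

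Differential expression used edgeR 4.0.16 in R 4.3.3: filterByExpr, TMM scaling, a quasi-likelihood fit with 1 term per genotype and a sex term over all 24 libraries, two-sided tests, and Benjamini-Hochberg adjustment over 18239 genes, called at an adjusted p under 0.05. The edgeR p-values set each difference against the spread between these mice. Transcript usage needed at least 5% of a gene's reads and a mean of at least 10 reads. Correlations used log2 CPM (prior count 1) and 100000 permutations, two-sided. Alternatives were DESeq2 1.42.0, limma 3.58.1 (voom), sva 3.50.0 (3 surrogate variables), other scalings, filters and covariates, length-scaled counts, and leaving out each library. The scripts were tested on simulated counts.

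The members and lists were chosen with earlier results of these data known. All 10 members are named; of each other list, called genes or else its most abundant; and the genes with the highest r with the members. Junction sequences were read from the GENCODE M21 transcripts.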

Additional observations from a re-analysis of the deposited data

Results flagged for a closer look

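In each genotype, each member's highest and lowest CPM was compared with the other 5 mice, 40 sets in all, and 2 sets held a mouse far from the rest; chance alone flags about 1 in 20 sets. Olig2 in nontransgenic Grn+/- replicate 2 was 43.9 CPM, where the other 5 mice had 22.6 to 28.7, and the same mouse had the highest summed mature oligodendrocyte genes of all, 5764 TPM. Matn4 in hTDP+ Grn+/+ replicate 4 was 12.6 CPM, where the other 5 had 9.65 to 10.7.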

How the results depend on the processing

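No member was called under any of 36 alternatives (12 settings and 24 in which 1 library was left out), in 3190 fits of a member, of which 7 gave no adjusted p by DESeq2. The lowest adjusted p was 0.254, for Olig1 in both changes against neither with surrogate variables. The estimate changed sign in 139 of these fits; a change of sign was counted as a reversal only where the main unadjusted p was under 0.05, and there were none. Over the alternatives, genes called ranged from 2 to 59 for the average hTDP effect (20 in the main analysis), 1 to 33 for hTDP in Grn+/+ (6), 0 to 12 for hTDP in Grn+/- (4), 1 to 13 for the average Grn effect (4), 0 to 9 for Grn without hTDP (2), 0 to 10 for Grn with hTDP (1), 2 to 78 for both changes against neither (14), 0 to 7 for the interaction (0) and 12 to 24 for sex (13). The median over all genes shifted by at most 0.03 (log2). Pairs of members passing by r numbered 20, 15 on log2 TPM and 23 after removal of genotype and sex. For transcript usage, 0 members were called by each of 6 settings; the 2 of them without replicate 2 of hTDP+ Grn+/+ were chosen after seeing the data. No paired analysis was possible because the labels give the mice no shared replicate numbers. Some ages recur across genotypes (9.44 months in all 4), while others occur only in nontransgenic Grn+/-. Age as a factor called no member. The intervals of the members' changes, not the count of calls, show which differences these 24 mice could miss.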
